A study of Drosophila melanogaster with 3 samples.

Results

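The 8 circadian clock genes vri, Pdp1, Clk, cyc, per, tim, cwo and cry were followed through a chromatin immunoprecipitation and sequencing (ChIP-seq) experiment on Drosophila melanogaster. They were taken by name as the transcriptional core of the clock and its photoreceptor, and all 8 were found by symbol among the 18277 annotated genes of the main chromosomes, of which 13968 were protein-coding. The single group held 3 biological replicates of whole white prepupae, the stage at which the larva stops moving and forms its puparium, with males and females pooled and the age given as unknown. All animals carried a transgene that stably expresses the product of CG8632, also called ZnT49B, with enhanced green fluorescent protein (eGFP) fused to its C-terminus, and chromatin was precipitated with an antibody to GFP. ZnT49B is named as a zinc transporter, not as a DNA-binding protein. No control samples were analysed here, so peaks cannot be told apart from regions that a GFP antibody would recover without the fusion protein. In whole animals the cells in which a peak arose are likewise unknown, and clock neurons are a small part of the tissue.

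The fly clock is a loop of transcription and feedback. CLK and CYC, a pair of bHLH-PAS proteins, activate per, tim, vri, Pdp1 and cwo through the E-box CACGTG, and the PER and TIM proteins return to the nucleus and inhibit that pair. In an interlocked loop VRI represses and PDP1 activates Clk through a shared binding sequence, CWO represses at E-boxes, and CRY senses blue light and triggers the breakdown of TIM.

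Peaks were counted for a gene when the summit lay in the gene body or within 5 kb of it. The authors' optimal set from an irreproducible discovery rate analysis, called the IDR set here, had 6469 peaks on build dm6. Each replicate also had a relaxed list of 29322 to 30000 calls that includes weak ones. The value given for a call is the signal of the authors' peak caller, and rank 1 is the strongest call of a list. A replicate call is called strong here when it is among the 6469 strongest of its list, which corresponded to a signal of at least 42.7 in replicate 1, 26.7 in replicate 2 and 41.0 in replicate 3. The scale of the signal differed between replicates, with medians of 20.0, 14.9 and 20.6, so an SD over replicates also holds that difference, and ranks are given beside signals.

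IDR peaks lay in or within 5 kb of 5 of the 8 clock genes, and most of them at vri and Pdp1. With the gene body alone, 3 of the 8 had a peak. vri had 9 IDR peaks and Pdp1 had 8, which made 17 of the 21 found in all. cwo had 2, cry had 1 and cyc had 1, while Clk, per and tim had 0. Of all protein-coding genes, 47.5% had an IDR peak under the same count, so 5 of 8 is not far from the background. A count of 8 or more peaks, as in vri and Pdp1, was seen in 0.945% of protein-coding genes, and the mean was 0.963 and the median 0. Genes with so many peaks were long, with a median length of 54.6 kb against 2.16 kb for all protein-coding genes. vri is 22.3 kb long and Pdp1 55.9 kb. Per 10 kb of gene and flanks, vri had 2.79 peaks and Pdp1 1.21. The rate was 0.568 when the counts and lengths of all protein-coding windows were pooled, which is not a mean of single-gene values. The other clock genes with a peak had 0.889 (cwo), 0.822 (cyc) and 0.753 (cry) peaks per 10 kb.

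**Figure D1:**
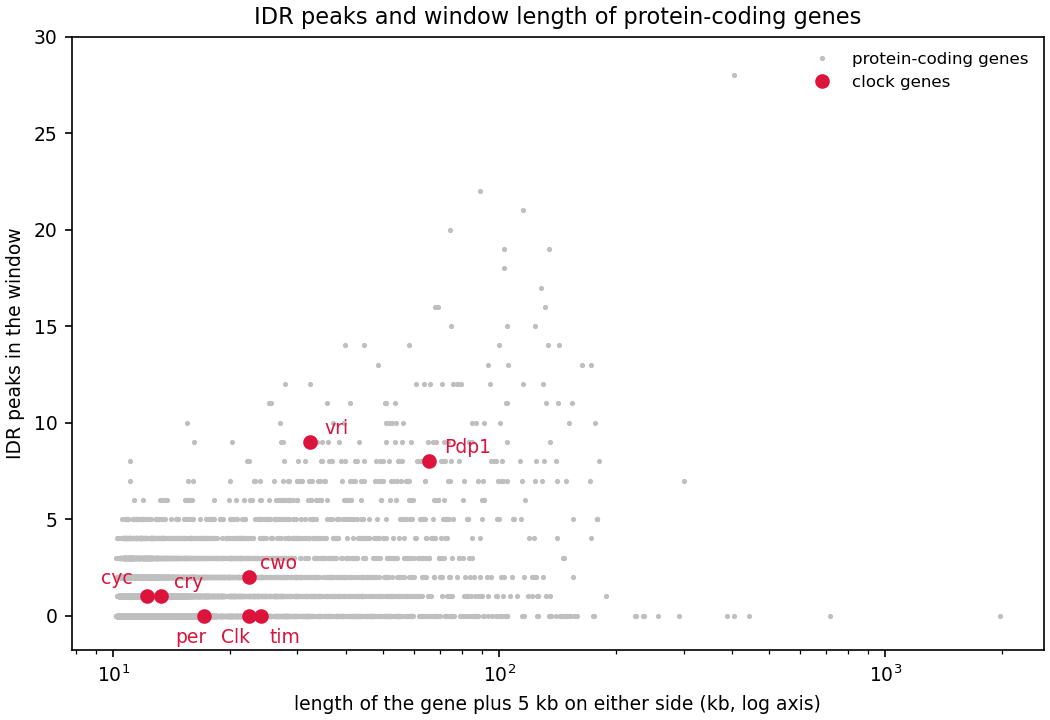
Number of IDR peaks in each protein-coding gene plus 5 kb on either side (vertical axis) against the length of that window in kb (horizontal log axis). Grey points are protein-coding genes and red points the 8 clock genes, with vri at 9 peaks and Pdp1 at 8, and Clk, per and tim at 0.

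The split between the genes was also seen in each replicate list. The IDR set derives from these replicates, so this is not separate support for the split. Strong calls in the vri window numbered 10, 12 and 8 in replicates 1, 2 and 3 (a mean of 10 with an SD of 2.00, n = 3), and in the Pdp1 window 8, 10 and 8 (8.67 ± 1.15). Over all 8 windows there were 23, 25 and 20 strong calls (22.7 ± 2.52). All 15 summits inside gene bodies lay in introns, and the other 6 lay in flanks. The nearest annotated start of any gene was the clock gene's own for 14 of the 21 peaks, the cry peak tied with a neighbour among them, and that of a neighbour for the other 7.

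vri encodes a bZIP repressor (FBgn0016076; chr2L:5288944-5311223, plus strand; dm6) and has 3 annotated transcript starts, of vri-RE, then vri-RC, and then vri-RA, vri-RD and vri-RF together. Its strongest peaks were a pair in the first long intron, with summits 654 bp apart. The stronger, chr2L:5293209-5293496, had its summit 4452 bp downstream of the vri-RE start and ranked 357 in the IDR set. In replicates 1, 2 and 3 its signals were 314, 141 and 273 (242 ± 90.5, SD, n = 3), and its ranks were 240, 643 and 280. Replicate 2 was the lowest in both signal and rank, yet the peak stood far inside the strong calls in all 3. The second of the pair, chr2L:5292618-5292926, described after its values were seen, lay 3798 bp downstream of the same start and ranked 383. It had signals of 277, 215 and 224 (239 ± 33.4) at ranks 350, 237 and 448, so replicate 2 gave this one its best rank.

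The vri-RC start carried a promoter peak. That peak, chr2L:5299247-5299682, had its summit 182 bp upstream of the start of vri-RC and ranked 1700 in the IDR set. Its signal was 67.3, 92.4 and 137 in replicates 1, 2 and 3 (98.9 ± 35.3) at ranks 3724, 1259 and 1183. It was strong in every replicate, with replicate 1 the lowest. At the first start, that of vri-RE, an IDR peak at chr2L:5288263-5288698 had its summit 463 bp upstream, near the edge of the 500 bp used for a start. That summit lay closer to the start of a long non-coding RNA gene, lncRNA:CR44743, at 186 bp. Signals there were 63.3, 32.3 and 26.2 (40.6 ± 19.9) at ranks 4050, 5212 and 11216. The replicate 1 and 2 calls lay further out, at 513 and 547 bp upstream, and the replicate 3 call at 454 bp was not strong. Within 500 bp of this start replicate 1 had no call and replicate 2 had one at rank 10459 with signal 18.4, so no replicate had a strong call there. The third start had no IDR peak: the pooled call there ranked 8634, replicate 1 had a call at rank 11419 with signal 25.9, replicate 3 one at rank 3622 with signal 64.7, and replicate 2 had none.

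Of the other vri peaks, described after their values were seen, the strongest was chr2L:5287666-5287844, with its summit 1224 bp upstream of vri-RE and 128 bp from the start of lncRNA:CR44742. It ranked 980, with signals of 220, 82.5 and 125 (143 ± 70.5). The remaining 4 had IDR ranks from 1458 to 5468 and mean signals from 38.6 to 109. Of these, the intronic peaks at ranks 1538 and 1458 lay nearest to the start of lncRNA:CR45730, at 1143 and 429 bp. The peaks were not spread evenly along the gene. Between the first and second starts, 10.7 kb apart, lay 7 of their summits. Among these was the vri-RC promoter peak, whose interval spans the second start. From the second start to the gene's end, 11.6 kb, lay 0 IDR summits. Pooled calls below the IDR cut did lie there, the strongest at rank 8634.

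Sequences around the summits of the pair and of the vri-RC promoter peak are shown because these are the strongest vri peaks and the one nearest to a vri start. Each holds 201 bases of the plus strand from the Release 6 genome sequence (RefSeq, dm6). Capitals mark the letters TATAAA on either strand, the only searched motif found in them, and the first of the 3 holds none. The windows are chr2L:5293296-5293496, chr2L:5292642-5292842 and chr2L:5299365-5299565.
vri intron peak at 4452 bp: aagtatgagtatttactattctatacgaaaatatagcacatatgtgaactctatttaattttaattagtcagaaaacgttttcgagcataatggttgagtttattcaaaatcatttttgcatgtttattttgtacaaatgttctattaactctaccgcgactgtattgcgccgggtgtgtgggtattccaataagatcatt
vri intron peak at 3798 bp: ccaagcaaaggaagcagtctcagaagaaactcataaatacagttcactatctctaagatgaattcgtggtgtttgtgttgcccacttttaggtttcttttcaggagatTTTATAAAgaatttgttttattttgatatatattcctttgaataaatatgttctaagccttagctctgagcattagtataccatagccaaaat
vri-RC promoter peak: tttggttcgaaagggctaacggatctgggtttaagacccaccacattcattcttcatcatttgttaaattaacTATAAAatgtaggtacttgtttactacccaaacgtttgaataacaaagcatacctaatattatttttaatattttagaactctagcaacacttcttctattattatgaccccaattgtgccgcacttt

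Pdp1 encodes the bZIP activator that acts opposite to VRI (FBgn0016694; chr3L:7811458-7867369, minus strand) and has 13 transcripts from 4 starts. Its 8 IDR peaks were weaker than the strongest of vri, with IDR ranks from 1806 to 4617 and mean signals from 34.6 to 96.6. The strongest, chr3L:7869982-7870417, lay outside the gene, 2831 bp upstream of the first start, that of Pdp1-RF and Pdp1-RO, and 1158 bp from the start of CG32365. It had signals of 138, 49.9 and 102 in replicates 1, 2 and 3 (96.6 ± 44.4) at ranks 1370, 3076 and 1868. Replicate 2 was again the lowest, and all 3 calls were strong. Another flanking peak, beyond the 3′ end, had its summit 45 bp from the start of the neighbour CG32369 and ranked 2027, with a mean signal of 84.3 ± 43.9.

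Within Pdp1, 5 peaks lay between the first and second starts, over 11.8 kb, and 1 in the remaining 44.1 kb. The strongest inside the gene, chosen after its values were seen, was chr3L:7863623-7864058, with its summit 3528 bp downstream of the first start at rank 1915. Its signals were 105, 64.4 and 90.5 (86.7 ± 20.8), and its ranks of 2058, 2185 and 2206 were close in all replicates. A second summit 222 bp away, also chosen after its values were seen, was less even, with signals of 73.3, 17.0 and 13.5 and ranks of 3337, 11778 and 25036. These intervals overlap and may share reads.

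No Pdp1 start had an IDR peak within 500 bp, but one, singled out after its values were seen, came near. At the start shared by 7 transcripts the IDR summit lay 520 bp upstream (chr3L:7855850-7856285, rank 3609, signals 82.3, 39.4 and 64.5, mean 62.1 ± 21.5). In replicates 1 and 3 the same call was within 500 bp, at 482 and 500 bp. Replicate 2 had a weaker one on the other side at rank 9058 with signal 20.5. The remaining 3 Pdp1 starts had no strong call in any replicate, the best of them at rank 9988.

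**Figure D2:**
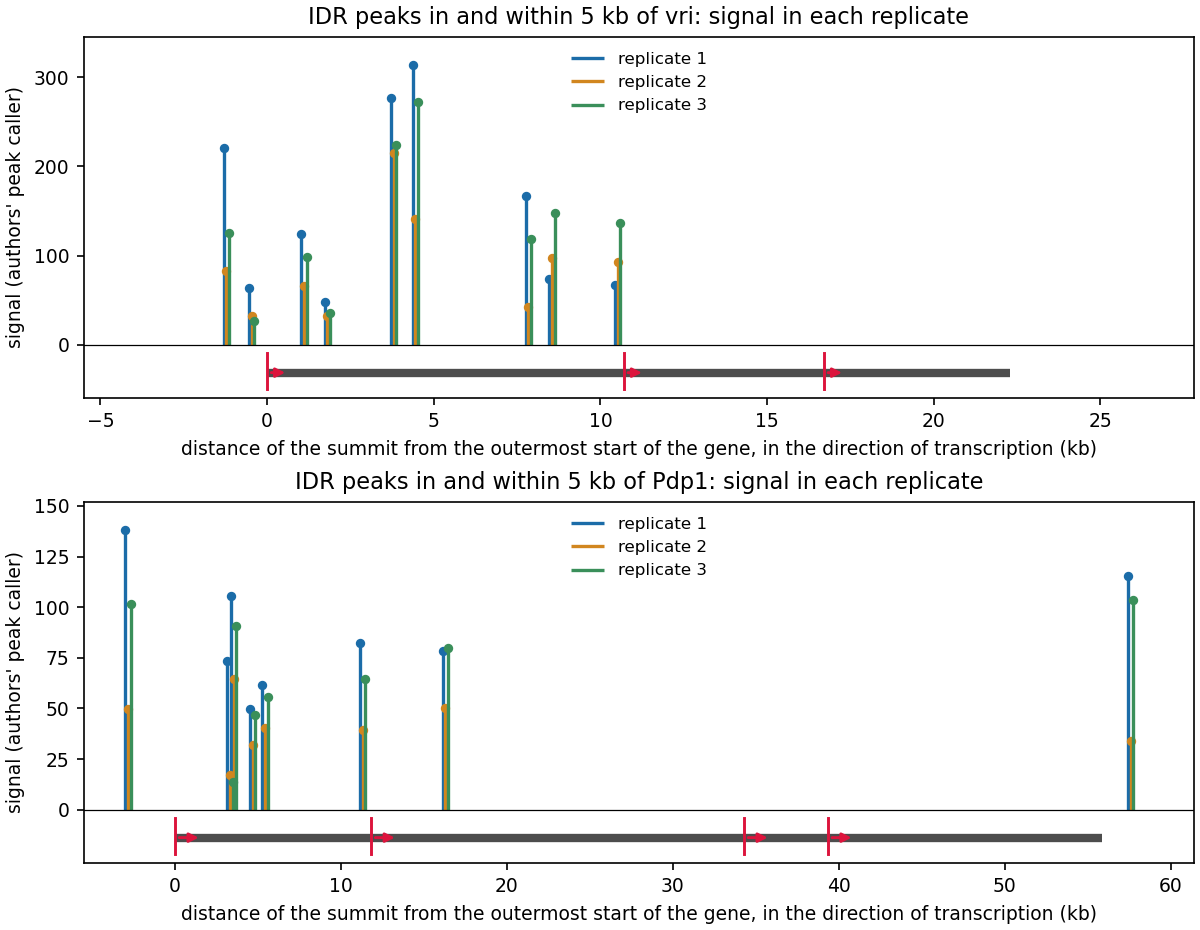
Signal of each IDR peak of vri (top) and Pdp1 (bottom) in replicates 1, 2 and 3 (vertical axis, signal of the authors' peak caller) against the distance of the summit from the outermost start in the direction of transcription (horizontal axis, kb). Replicates are drawn slightly side by side, grey bars are the genes and red arrows their starts. The highest vri values, up to 314, stand between the first and second starts, and 5 of the 8 Pdp1 peaks stand between its first and second.

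The strongest Pdp1 peak inside the gene held the only E-box within any IDR peak of a clock gene, at chr3L:7863752-7863757. It lay 86 bp from the summit, near the left end of the window chr3L:7863741-7863941. That window is shown for this E-box, with capitals marking CACGTG and, further right, GAGAG read on the other strand.
Pdp1 intron peak: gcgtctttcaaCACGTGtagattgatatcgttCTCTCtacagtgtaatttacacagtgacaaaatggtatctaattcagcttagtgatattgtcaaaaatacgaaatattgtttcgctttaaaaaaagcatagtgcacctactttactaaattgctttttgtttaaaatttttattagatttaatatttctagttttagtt

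cwo encodes a bHLH-Orange repressor that competes for E-boxes (FBgn0259938; chr3R:10388258-10400752, plus strand) and has 1 annotated start, shared by 3 transcripts. Both of its IDR peaks were intronic, at ranks 5954 and 4331. Counting only IDR peaks with strong calls in replicates 2 and 3, which leaves replicate 1 out, cwo had 0 and 4 of the 8 clock genes kept a peak. The stronger, chr3R:10393682-10394117, ranked 4331 and lay 5642 bp downstream of the start. It had signals of 49.7 in replicate 1 and 43.5 in replicate 2 (46.6 ± 4.35, SD, n = 2) at ranks 5453 and 3650, and no matching call in replicate 3. It was the only one of the 21 peaks that a replicate lacked. The weaker, 2798 bp downstream, ranked 5954 with a mean signal of 39.7 ± 15.5. At the start itself no call reached the IDR set: the pooled call there ranked 7315, and the replicates had ranks of 5950, 7833 and 9505 with signals of 46.2, 23.0 and 30.1, of which replicate 1 alone was strong.

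cry encodes the blue-light photoreceptor cryptochrome (FBgn0025680; chr3R:19212154-19215442, plus strand). Its only IDR peak lay at the promoter. That peak, chr3R:19211833-19212049, had its summit 218 bp upstream of the cry-RA start and ranked 1049. It lay equally far, 218 bp, from the start of lncRNA:CR46393. Its signal was 197, 87.3 and 130 in replicates 1, 2 and 3 (138 ± 55.2) at ranks 732, 1386 and 1292. All 3 calls were strong. Replicate 1 was the highest, by more than the gap between the other two. In replicates 2 and 3 the vri-RC promoter peak had the higher signal and better rank, and in replicate 1 the cry peak did.

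Summit windows of the cwo and cry peaks are shown because the first is the peak that a replicate lacked and the second is the promoter peak of cry. Both are plus strand from the Release 6 genome sequence (RefSeq, dm6), at chr3R:10393800-10394000 and chr3R:19211836-19212036, with TATAAA and GAGAG on either strand in capitals.
cwo intron peak: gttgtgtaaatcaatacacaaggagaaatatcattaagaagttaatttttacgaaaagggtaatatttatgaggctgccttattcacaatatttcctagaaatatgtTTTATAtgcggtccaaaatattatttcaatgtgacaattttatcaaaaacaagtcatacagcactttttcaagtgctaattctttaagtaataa
cry promoter peak: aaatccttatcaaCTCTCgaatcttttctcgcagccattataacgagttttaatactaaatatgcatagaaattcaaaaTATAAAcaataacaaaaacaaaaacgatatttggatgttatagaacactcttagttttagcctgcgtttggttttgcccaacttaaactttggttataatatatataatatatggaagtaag

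The activator genes carried few calls. Clk (FBgn0023076; chr3L:7763233-7775603, minus strand) encodes the bHLH-PAS activator and had no IDR peak and no call of any rank in the pooled list or in replicates 1 and 3. Replicate 2 had 3 calls, the strongest at rank 14765 with signal 14.9 in a coding exon. Neither of its 2 starts had a call. The nearest IDR summit lay 7965 bp from the gene, a distance that 42.4% of protein-coding genes equalled or exceeded. Clk and Pdp1 lie 35.9 kb apart on 3L, with the start of CG32369 and 3 IDR peaks in the space between them. Among these peaks is the flanking peak near that CG32369 start, already counted for Pdp1. cyc (FBgn0023094; chr3L:19813770-19815938, minus strand) encodes the partner of CLK and had 1 IDR peak, chr3L:19817743-19818178, at rank 2207. Its signals of 93.1, 69.7 and 93.5 (85.4 ± 13.6) at ranks 2433, 1949 and 2110 were among the most even. The summit lay 2023 bp upstream of cyc and 6 bp from the start of the neighbouring gene Fibp, and the cyc start had no call of any rank in any replicate.

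The inhibitor genes per and tim had no IDR peak. per (FBgn0003068; chrX:2685580-2692780, plus strand) had its strongest call in replicate 1 at rank 7977 with signal 35.7, at 334 bp upstream of the start. In replicate 2 its strongest call was in a coding exon at rank 22702 with signal 11.7, and replicate 3 had none. The start call therefore rested on a single replicate. tim (FBgn0014396; chr2L:3493986-3508119, minus strand) came nearer to the IDR set. Within 500 bp of its tim-RO start lay a pooled call at rank 6966, with signal 98.8 against 104.8 for the weakest IDR peak. Replicate 2 had this call at rank 8561 with signal 21.4 and replicate 3 at rank 5637 with signal 45.7. Replicate 1 had its strongest tim call elsewhere, at rank 19087 with signal 16.0, 157 bp downstream of the start shared by 6 transcripts. The nearest IDR summits lay 11104 bp from per and 11106 bp from tim, and 34.3% of protein-coding genes were at least as far from one.

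Counting calls of every rank over the 3 replicates kept the same order at both ends. vri had 22.9 calls per 10 kb of window and Pdp1 15.5, against 6.92 over protein-coding genes. Clk had 1.34, per 2.33, tim 3.31 and cyc 4.11, while cry had 7.53 and cwo 8.89. Of all protein-coding genes, 23.5% had at most 3 calls over the replicates, the count for Clk. That share is of raw counts and is not matched for length: Clk is 12.4 kb long against a median of 2.16 kb.

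Across the 8 genes there were 16 annotated starts, and 3 had an IDR peak within 500 bp, those of vri-RE, vri-RC and cry-RA. These belong to 2 members, vri and cry, and 17.0% of protein-coding genes had an IDR peak at an own start. A strong call in every replicate was found at 2 starts, those of vri-RC and cry-RA, again 2 members, against 12.5% of protein-coding genes. Calls of any rank in every replicate were found at 5 starts, and in no replicate at 4, namely both starts of Clk, that of cyc and the outermost of tim.

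**Figure D3:**
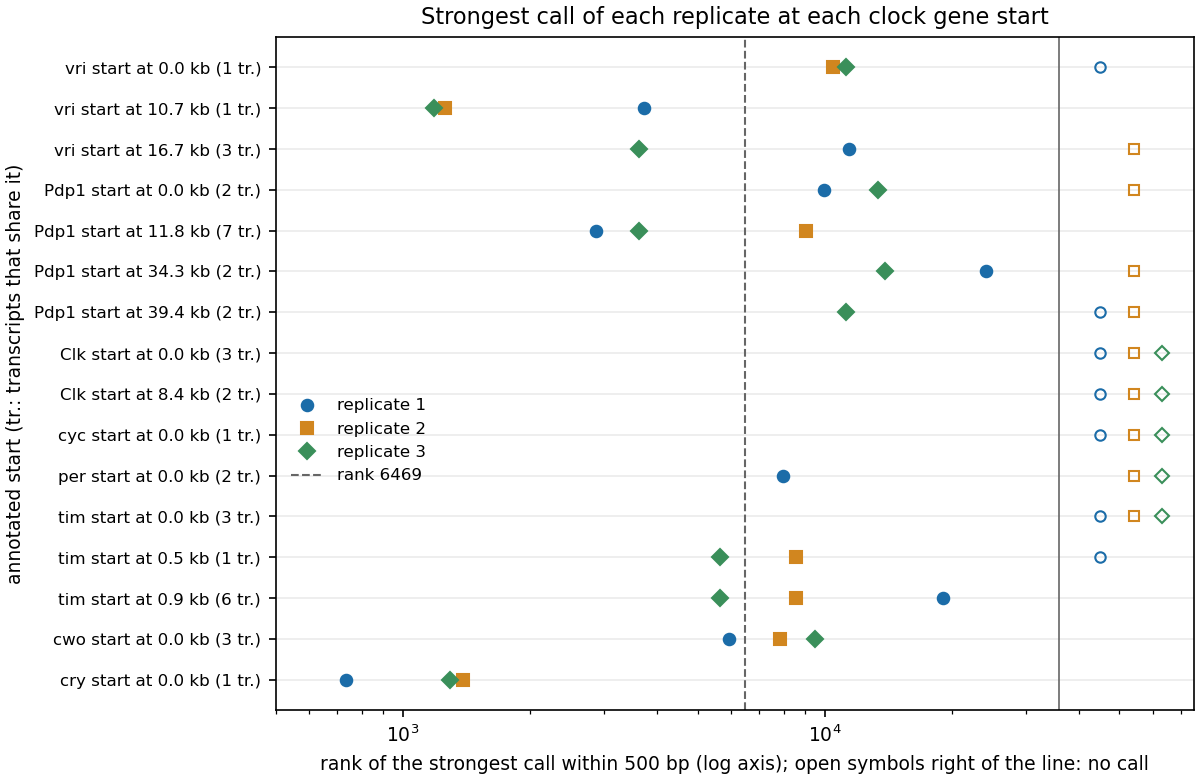
Rank of the strongest call within 500 bp of each of the 16 clock gene starts (horizontal log axis, 1 is strongest) in replicates 1, 2 and 3, with starts given in kb from the outermost start of the gene. Open symbols right of the solid line mark replicates with no call, and the dashed line is rank 6469. All filled symbols of the vri start at 10.7 kb and of the cry start lie left of the dashed line.

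Of the 21 peaks, 20 were matched within 150 bp by a call in every replicate, as were 93.1% of all IDR peaks. Strong matches in every replicate were found for 16 of 21, or 76.2%, against 63.5% of all IDR peaks. The pooled signals of the 21 had a median of 263.6 against 189.4 for the IDR set, and 13 were among its 3234 strongest. Of these 13, vri had 7, Pdp1 4, cyc 1, cry 1 and cwo 0. Most of the 21 peaks are those of vri and Pdp1, so these values largely describe that pair. Among the 20 matched peaks replicate 2 gave the lowest signal for 16 and the highest for 0, while replicate 1 gave the highest for 15. Ranks, which do not carry the scale of a list, were less one-sided: replicate 1 gave the best rank for 11 peaks, replicate 2 for 5 and replicate 3 for 4.

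**Figure D4:**
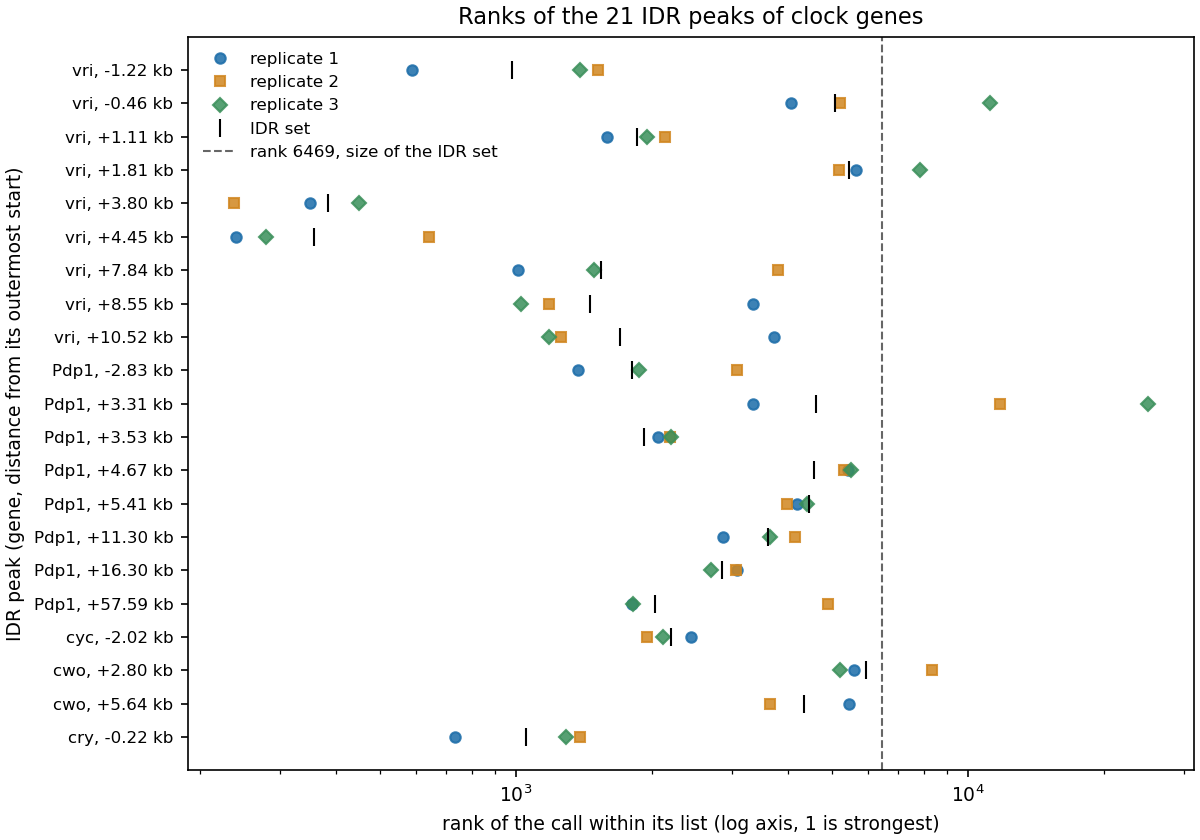
Rank of each of the 21 IDR peaks of clock genes (vertical axis, named by gene and distance from its outermost start) in replicates 1, 2 and 3 and in the IDR set (horizontal log axis, 1 is strongest). The dashed line is rank 6469. The vri pair at 3.80 and 4.45 kb stands leftmost, and the Pdp1 peak at 3.31 kb spreads from 3337 to 25036.

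E-boxes are the sequences through which CLK and CYC, and CWO, are known to act, so their copies inside the peaks were counted. The 8 windows held 52 copies of CACGTG, of which cwo had 15, Pdp1 14, per 11, vri 4 and Clk, cyc, tim and cry 2 each. A single one, 1.92%, lay inside an IDR peak. On the main chromosomes without Y, 259 of 16428 copies, 1.58%, did so, while IDR peaks covered 1.85% of the bases there. The share in the clock gene windows is near that background. Peak coverage of those windows alone was not computed, so nothing is read from the count. Next to the per start, the E-box at chrX:2685050-2685055, 527 bp upstream, was inside a call of replicate 1 alone, at rank 7977. At tim the E-box at chr2L:3507417-3507422, in a 5′ untranslated region, was inside the pooled call at rank 6966 and inside those of replicates 2 and 3.

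In windows of 100 bp to either side of the 21 summits, searched on both strands, CACGTG was found in 1 (4.76%) against 1.62% of all IDR windows. The VRI and PDP1 sequence, TTATGTAA or TTACGTAA, was found in 0 against 2.64%, and the replication-related element TATCGATA in 0 against 1.33%. GAGAG was found in 5 (23.8%) against 21.9%, and TATAAA in 11 (52.4%) against 39.1%. With 21 windows these shares are imprecise: the exact Clopper-Pearson 95% interval for TATAAA ran from 29.8 to 74.3%, which covers counting error only and holds the share of all windows. That interval takes the windows as independent, but 17 of the 21 come from vri and Pdp1, so it may be too narrow. Member windows had a median GC content of 29.4% (22.4 to 45.8%) against 33.3% for all IDR windows.

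Of 24 other clock-related genes, 16 (66.7%) had an IDR peak in the gene or within 5 kb and 6 (25.0%) had one at an own start. Over all protein-coding genes these shares were 47.5% and 17.0%, and lengths were not matched between the lists, so nothing is read from the difference. By role, peaks were on 5 of 6 kinase genes, 3 of 3 phosphatase subunit genes, 3 of 5 ubiquitin ligase and protease genes, both translation genes, both genes of chromatin and transcription, and Bdbt, whose product binds the kinase DBT. None of the 5 output genes had one, namely the neuropeptide gene Pdf, its receptor gene Pdfr, the ion channel gene na, to, and Slob, whose product binds the Slowpoke potassium channel. The strongest start peak was at sgg, the GSK-3 kinase that phosphorylates TIM, 217 bp upstream of a start at rank 270. Its signals were 307, 203 and 268 (259 ± 52.5). The strongest vri peak, with 314, 141 and 273, was higher in replicates 1 and 3 and lower in replicate 2. A start peak of wdb, a regulatory subunit of protein phosphatase 2A, ranked 2026 with signals of 106, 41.1 and 117 (88.0 ± 41.1). At mts, the catalytic subunit of that phosphatase, the peak ranked 2306 with signals of 60.0, 77.8 and 87.8 (75.2 ± 14.1), though its nearest start was that of Rack1. The ubiquitin ligase gene ctrip had a start peak at rank 3138 (63.0, 30.6 and 95.2, mean 62.9 ± 32.3). The acetyltransferase gene nej had one at rank 3475, with 41.7 in replicate 2, 51.9 in replicate 3 and no match in replicate 1. Atx2, which acts in per translation, had one at rank 5471 (55.5, 21.5 and 47.0, mean 41.3 ± 17.7), 495 bp from the start.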

How the data were processed

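Peak lists from 3 biological replicates of 1 group were used, on build dm6. The lists on dm3 were not used. In each list the authors deposited intervals with a signal value from their peak caller, which was not rescaled here. For the peak caller, its cut-off, the aligner, the control correction, the IDR threshold and the read depth the entry is: not given in the sources used here. The depth is therefore unknown, and the error given for a signal is the SD over replicates, with no read-based interval. The IDR set of 6469 intervals matched the top of the deposited pooled list call for call, so it has no replicates of its own. The summit of a call decided its place.

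Genes and transcript starts came from the Ensembl 115 annotation of the Release 6 genome. A call was assigned to a gene when its summit lay in the gene body or within 5 kb, to a start within 500 bp, and an IDR peak was matched to the nearest replicate call within 150 bp. Mean and SD of signals are over replicates. With 1 group and no control samples analysed, no test between groups was run. Counts of members are set beside the same counts over protein-coding genes. Counting and matching were checked with planted peaks. Calculations used Python 3.11.15, numpy 2.4.6, pandas 2.3.3 and scipy 1.17.1, and figures matplotlib 3.10.9.

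Members, lists and rules were chosen with earlier results of these data known. Values in every replicate were given for each member's strongest IDR peak, for every IDR peak within 500 bp of its own start and, where a member had none, for its strongest call in each replicate. Peaks described as chosen after their values were seen, and single E-boxes, fall outside that rule. The alternatives tried were other flanks, start distances, the outermost start alone, other matching distances and motif reaches, the stronger part of the IDR set, calls of any rank and leaving out each replicate.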

Additional observations from a re-analysis of the deposited data

How the results depend on the processing

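Of 43 alternatives for counts, 34 stayed within 1.5 times the value in the report and 9 moved further. With the gene body alone, 3 members and 10 clock-related genes had an IDR peak. In the stronger part of the IDR set, 3234 peaks, the members held 13 peaks, and cwo held none. Members with a start strong in every replicate numbered 1 within 250 bp, 1 at outermost starts only and 1 in the stronger part of each list, and 5 with calls of any rank. For calls of any rank the share over all protein-coding genes was not computed. Clock-related genes with an IDR peak at a start numbered 3 within 250 bp and 1 at outermost starts only.

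Leaving out 1 replicate at a time meant counting only IDR peaks with strong calls in the remaining replicates, a condition the main count lacks. It left 4 to 5 members with a peak and 16 to 19 peaks in all. With all 3 replicates, strong calls in each were found for 16 peaks. A loss here therefore does not show that a peak depends on the replicate left out. cwo held 0 of its peaks without replicate 1 and 1 without replicate 2 or 3. Members with a start strong in every replicate numbered 3 without replicate 2. Within 10 kb instead of 5 kb, Clk gained 1 peak and Pdp1 had 11. Within 2 kb, cyc had 0. Without replicate 1 the mean signal of the vri-RC promoter peak was 114.7 and that of the cry peak 108.6, the other order than with all 3. For motifs, windows of 50 bp to either side held E-boxes in 0 against 0.587% of all IDR windows. GAGAG was in 9.52% of them against 10.1%. Windows of 200 bp held GAGAG in 52.4% against 46.1%. At that reach the VRI and PDP1 sequence was in 4.76% against 4.14%, and TATCGATA in 4.76% against 2.91%. No paired analysis was possible because there is 1 group. The unknown read depth limits what the weaker calls can show.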
